A study of Mus musculus with 12 samples.

Results

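The genes that license origins of DNA replication, open and copy the fork and supply it with nucleotides and histones were followed by RNA-seq in mouse female germline stem cells (FGSCs), cells purified from ovary with beads carrying antibody to the germ cell protein MVH. The 44 genes were chosen by symbol, among 24813 genes and 41388 RefSeq transcripts with counts, by a rule that uses no measured value, though with earlier results of these data known. They comprised 6 origin licensing genes, 6 subunits of the MCM helicase, 6 genes of helicase activation, 5 of the clamp and its loader, 7 of the polymerases and primase, 3 of single strand binding, flap removal and ligation, 4 of nucleotide supply, 3 of histone supply, and 4 genes of cyclin E and E2F.

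The 12 libraries fell into 4 groups of 3. KO was a line in which *Stella* (listed as *Dppa3*) had been disrupted with lentivirally delivered sgRNAs and Cas9, and KO-con was its control, of which the labels say no more. Over was a line infected with a lentivirus carrying the *Stella* coding sequence and selected with puromycin, and Over-con had received the empty lentiviral vector. All groups were C57BL/6 cells past passage 20, grown on mitotically inactivated STO feeder cells with leukemia inhibitory factor, epidermal growth factor and basic fibroblast growth factor among the supplements. KO was derived from 1 clone, and nothing says that the 3 libraries of a group came from separate cultures, so p-values measure only the spread between these libraries.

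Replication is set up in G1, when the origin recognition complex, Cdc6 and Cdt1 load the MCM helicase onto DNA, and starts in S phase, when Cdc45 and the GINS complex turn the loaded helicase on. Polymerase alpha and primase then lay down primers, the RFC complex loads the PCNA clamp, and polymerases delta and epsilon copy the strands. Most of these genes are transcribed under E2F factors as cells enter S phase, so that their mRNA is a common readout of cycling cells.

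Library totals ranged from 5611846 to 12866545 counts, and the 44 genes held 5942 to 15844 counts per library. *Dppa3* had 0 counts in each of the 9 libraries of KO-con, KO and Over-con, which allows at most 3 counts or 0.261 to 0.535 CPM per library (CPM is the count divided by the library total, brought to the same total for all), and 347, 371 and 285 counts in Over. Loss of the targeted mRNA in KO could therefore not be seen at this depth, since its control held none either. Of 15 germ cell markers, *Ddx4*, *Tfap2c* and *Gfra1* were at 0 in every library, *Dazl*, *Pou5f1* and *Stra8* had 1 count each, and *Ifitm3* carried most of the summed level, with group means of 95.3 to 155 CPM. The 3 markers at 0 are listed with more than 1 transcript, a class that was poorly counted, as described next. Low counts were not confined to that class. Of the 7 germ cell markers listed with 1 transcript, *Stra8*, *Bcl6b* and *Nanos2* had 1, 2 and 14 counts in all, *Prdm1* 104 and *Sycp3* 191, beside *Dppa3* and *Ifitm3* given above. *Tpsab1*, *Fcer1a*, *C1qa* and *C1qb*, given below at 0, are also listed with 1 transcript. Markers of other cell types were present in all groups. The summed level of 15 mast cell markers, nearly all of it *Cpa3*, ranged from 376 to 436 CPM in KO-con, 1150 to 1240 in KO, 767 to 870 in Over-con and 654 to 674 in Over, with *Tpsab1*, *Fcer1a* and *Ms4a2* at 0. The sum of 13 fibroblast markers, led by *Col1a2*, ranged from 1450 to 1670, 1320 to 1870, 2080 to 2250 and 1790 to 1860 CPM in the same order, with *Pdgfrb* at 0. The 12 macrophage markers, led by *Fcgr1* and with *Adgre1*, *Itgam*, *C1qa* and *C1qb* at 0, summed to 183 to 203, 231 to 270, 218 to 240 and 232 to 239 CPM. The 9 leukocyte markers, led by *Laptm5* and with *Vav1* at 0, summed to 1350 to 1440, 1360 to 1580, 1500 to 1680 and 1380 to 1440 CPM. The part of such cells in the results was not tested, and in these bulk samples fewer cells of a type and less RNA per cell cannot be told apart.

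How well a replication gene was measured differed with how many transcripts the table listed for it. The 26 genes with 1 listed transcript had 919 to 16952 counts over the 12 libraries, with a median of 2950 and *Mcm2* at the top. The 18 genes with 2 or more had 0 to 533 counts, with a median of 19.5. *Mcm5* of the helicase, *Orc2* and *Orc6* of the origin recognition complex, *Cdc45* of the active helicase and *Slbp*, which binds histone mRNA, were listed at 0 in all 12 libraries, and only *Mcm7*, *Gins1*, *Pola2* and *E2f1* of the 18 reached 120 counts. Such a split ran through the whole table, in which genes with 1 transcript held 95.7% of all counts and genes with 2 or more held 3.63%. How reads shared between transcripts were treated is not stated, and a low count in the second class cannot be read as low expression.

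**Figure D1:**
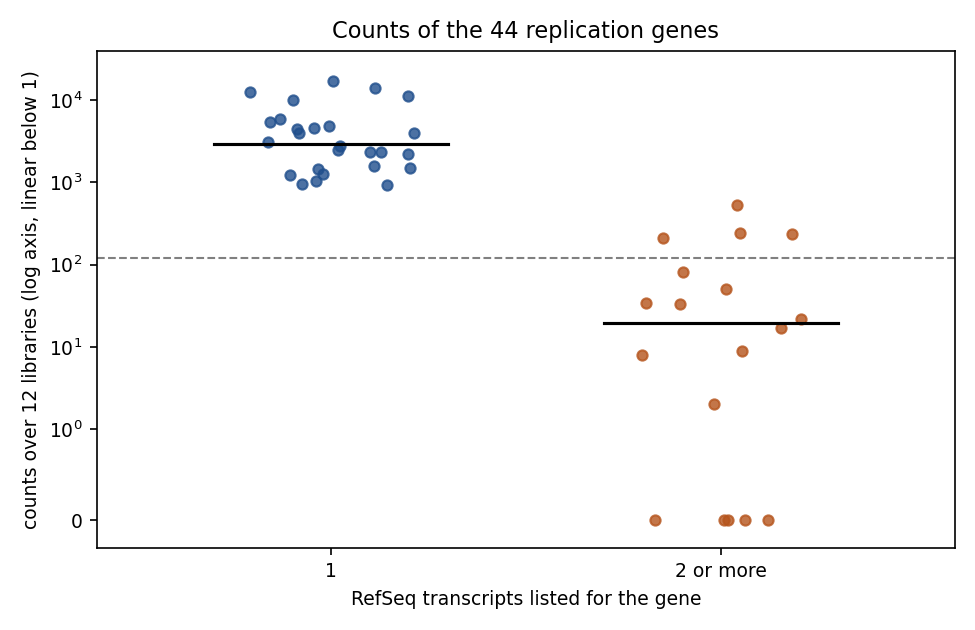
Counts over all 12 libraries of each of the 44 replication genes (vertical axis, logarithmic above 1 count), split by the number of RefSeq transcripts listed for the gene. Each point is a gene, black lines are medians (2950 and 19.5 counts) and the dashed line marks 120 counts, which 26 of 26 and 4 of 18 genes reached.

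The filter on low counts left 30 of the 44 genes in each comparison of a pair of groups, the 26 with 1 transcript and the 4 named above. Each gene stood in the tests by its listed transcript with the most counts. The 14 that were not tested in pairs of groups were *Mcm5*, *Mcm6*, *Mcm10*, *Orc2*, *Orc6*, *Cdc6*, *Cdc45*, *Fen1*, *Lig1*, *Tyms*, *Tk1*, *Slbp*, *Ccne2* and *E2f8*. *Mcm6* had the most counts among these, with 81, and entered the fit of all 12 libraries. The DNA ligase gene *Lig1* had 51 counts in all, *E2f8*, a repressor of E2F targets, 33, *Mcm10* 22, *Ccne2*, cyclin E2, 17, *Cdc6* 9 and the flap nuclease gene *Fen1* 8. Some genes share sequence with other places in the genome. In *Pcna* 64.9% of the 30-base stretches of its transcript occurred elsewhere in mm9, in *Mcm7* 39.8%, in *Rfc5* 36.9% and in *Rrm2* 24.7%, so that reads of these genes could be split or lost. *Rfc5* also shares 10.7% of its exon bases with *Wsb2*, *Rfc4* 12.6% with *Eif4a2* and *Mcm7* 12.6% with other genes.

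Levels were set per kilobase of all exons of a gene in GENCODE vM1 (mm9), although each count is that of RefSeq transcripts, and the values depend on the length used. Over all libraries *Rfc2* stood highest at 76.5 CPM per kilobase, followed by *Pcna* at 43.9, *Mcm2* at 41.7, *Mcm3* at 31.2 and *Rrm1* at 21.3. By the longest coding transcript of that annotation these 5 genes kept their order, with *Pcna* at 69.2. Below them the order changed with the length. *Rfc3* was at 5.78 CPM per kilobase by the first length and 15.9 by the second, *Rrm2* at 14.6 and 18.5, and *Rfc5* at 4.2 and 7.01. *Gins2*, whose exons overlap *Gse1* over 67.3% of their bases, was at 1.89 and 1.98.

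Promoter windows of 300 bases, from 250 before to 50 after each gene start (RefSeq, GRCm38.p6), were given for 35 of the 44 genes, 40 windows in all. The E2F words TTTCCCGC, TTTCGCGC, TTTGCCGC and TTTGGCGC, read on both strands, occurred in 13 of the 40 windows (32.5%), 13 genes, against 2.26% of 32851 windows of all genes and 2.85% of the 21263 windows of protein-coding genes. CCAAT, on both strands, stood in 57.5% of the replication windows against 37.4% of all, GGGCGG in 70% against 35.7%, and TTTGAA or TTCGAA in 17.5% against 19.2%. These are matches of letters and not shown sites. Of the 9 genes that were higher in KO than in KO-con below, 6 have a window and *Pola1* alone has an E2F word in it, and of the 3 that were higher in Over than in Over-con, 2 have a window and both have a word. Among the tested genes that did not pass, 8 of 16 with a window had a word in the first comparison and 7 of 20 in the second. The 3 windows are shown because they belong to these genes, 5′ to 3′ on the strand of the gene, with the E2F words in capitals. *Pola1* lies on the minus strand (chrX:93632106-93632405), *Mcm3* on the minus strand (chr1:20820263-20820562) and *Cdt1* on the plus strand (chr8:122567765-122568064). In *Pola1* the word starts 138 bases before the gene start, whereas in *Mcm3* the words start 19 and 38 bases and in *Cdt1* 32 bases after it.
Pola1: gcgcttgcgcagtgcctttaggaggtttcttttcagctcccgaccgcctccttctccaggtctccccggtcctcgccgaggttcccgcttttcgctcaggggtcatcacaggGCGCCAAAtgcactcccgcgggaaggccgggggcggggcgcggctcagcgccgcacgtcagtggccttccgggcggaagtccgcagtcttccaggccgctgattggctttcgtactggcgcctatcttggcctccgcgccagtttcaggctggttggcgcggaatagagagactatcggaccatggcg
Mcm3: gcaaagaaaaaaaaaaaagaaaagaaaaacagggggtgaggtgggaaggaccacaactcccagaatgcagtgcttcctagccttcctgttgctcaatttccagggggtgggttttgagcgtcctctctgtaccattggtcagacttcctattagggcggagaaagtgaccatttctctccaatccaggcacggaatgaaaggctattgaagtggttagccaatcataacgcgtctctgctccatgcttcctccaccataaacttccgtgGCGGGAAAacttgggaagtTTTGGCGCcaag
Cdt1: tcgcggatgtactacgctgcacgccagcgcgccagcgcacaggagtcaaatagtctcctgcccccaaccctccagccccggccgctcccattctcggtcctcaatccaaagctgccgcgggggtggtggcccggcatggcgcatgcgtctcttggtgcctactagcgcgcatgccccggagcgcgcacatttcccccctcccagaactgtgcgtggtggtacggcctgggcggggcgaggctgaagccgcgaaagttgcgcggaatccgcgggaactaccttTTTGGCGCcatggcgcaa

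The level of the set as a whole differed between the groups. Over the 31 genes in the fit of all libraries, the median deviation of a library from the 12-library mean lay between -0.30 and -0.23 (log2 CPM) in KO-con, between -0.01 and 0.03 in KO, between -0.04 and 0.05 in Over-con and between 0.20 and 0.23 in Over. The ranges of KO and Over-con overlapped, and those of KO-con and Over lay below and above them without overlap. The summed level was 842 ± 11.8 CPM (SD, n = 3) in KO-con, 1060 ± 52.4 in KO, 1040 ± 20.8 in Over-con and 1210 ± 15.3 in Over. By group mean, 28 of the 31 genes were lowest in KO-con and 27 were highest in Over. The order KO-con, Over-con, KO, Over was found for 14 genes and KO-con, KO, Over-con, Over for 11.

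**Figure D2:**
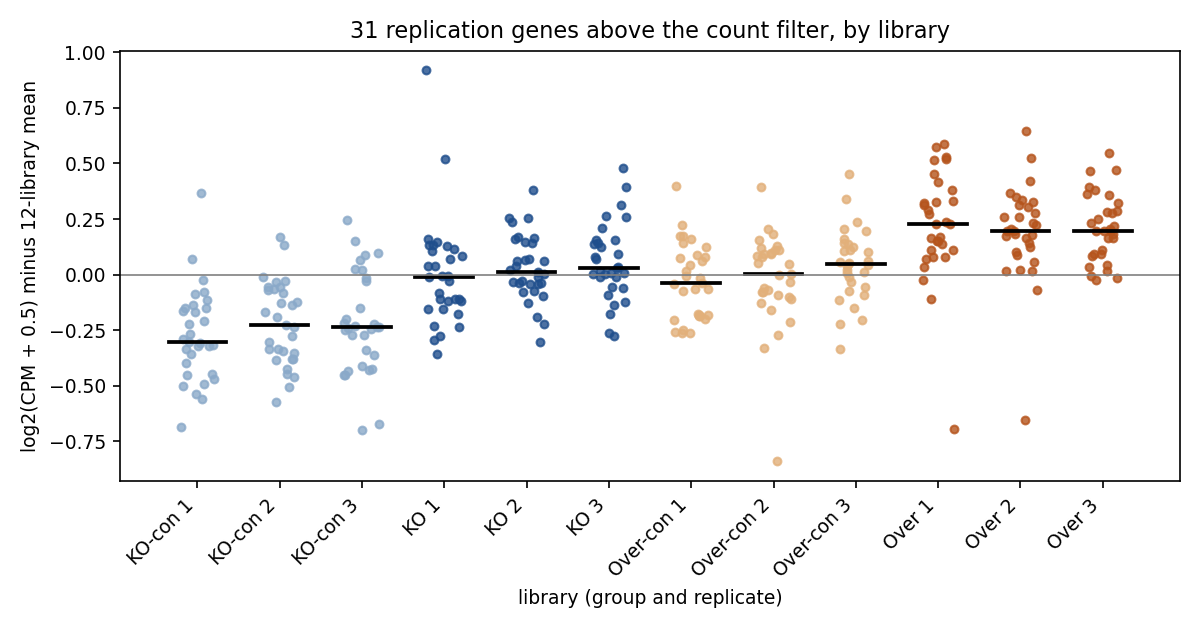
Deviation of each of the 31 replication genes above the count filter from its mean over the 12 libraries (vertical axis, log2 of CPM plus 0.5), by library and coloured by group, with the median of a library as a black line. The medians run from -0.30 to -0.23 in KO-con, lie between -0.04 and 0.05 in KO and Over-con, and reach 0.20 to 0.23 in Over.

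KO was compared with KO-con to ask what loss of *Stella* does to these genes. In KO, 9 of the 30 genes tested were higher than in KO-con and 0 were lower (edgeR's quasi-likelihood test, adjusted p under 0.05), where 11.8% of all 9457 transcripts tested passed, 5.83% higher and 5.96% lower. At an unadjusted p under 0.05, 15 genes were higher and 0 lower, and DESeq2 called 8 higher and 0 lower and limma-voom 9 and 0. The share of all transcripts at an unadjusted p, or by these other methods, was not taken here or below. Such counts therefore cannot be set against the rate over all transcripts. The log2 fold change was above 0 for 29 of the 30, with a median of 0.26 beside 0.01 for all transcripts and a range from -0.02 to 0.74. No gene was past the DEG threshold of an absolute log2 fold change over 1 (0 of 30, against 1.7% of all). In 16 genes every KO library was above every KO-con library, against 15.9% of all transcripts, and in 0 genes every KO library was below, against 14.5%. The 9 genes came from 5 of the groups of function, 2 each from the helicase, the clamp loader, the polymerases and the supply of nucleotides, and 1 from histone supply. The mast cell and macrophage sums given above were also higher in every KO than in every KO-con library, and their part in the result was not tested.

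The gene with the largest difference was *Rfc2* of the clamp loader. *Rfc2* (chr5:135058560-135074198, plus strand, mm9), a subunit of the complex that places PCNA on primed DNA, was at 80.5, 84.4 and 69.7 CPM in KO-con and at 127, 127 and 136 in KO. It rose by 0.74 on the log2 scale (SE, the standard error, 0.08 and adjusted p = 2.37e-05), 1.67-fold. Levels in KO did not overlap those of KO-con, and stood beside 127, 120 and 127 CPM in Over-con and 134, 131 and 130 in Over, so that KO-con was the group that lay apart. *Rfc5* (chr5:117828112-117839056, minus strand), of the same complex, was at 13.8, 15.2 and 14.2 CPM in KO-con and 20.9, 22.8 and 23.2 in KO. Its log2 fold change was 0.64 (SE 0.12, adjusted p = 0.00216), with the limits of shared sequence given above. The 3 other genes of this group did not pass, *Rfc4* with 0.36, *Pcna* with 0.06 and *Rfc3* with 0.05.

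Both subunits of ribonucleotide reductase, the enzyme that makes deoxyribonucleotides, rose. *Rrm1* (chr7:109590209-109618285, plus strand), the large subunit, was at 67.4, 66.1 and 65.3 CPM in KO-con and 89.1, 87.7 and 86.1 in KO, 0.41 higher on the log2 scale (SE 0.07, adjusted p = 0.00184). The 3 libraries of each group lay close to one another and the groups did not overlap. *Rrm2* (chr12:25393106-25399011, plus strand), the small subunit, was at 27.1, 27.7 and 29.1 CPM in KO-con and 39.3, 37.0 and 55.4 in KO, 0.66 higher on the log2 scale (SE 0.13, adjusted p = 0.00415). KO replicate 3 was the highest library of all 12 for *Rrm2*. *Tyms* and *Tk1*, which make thymidylate, were at 2 and 34 counts in all and were not tested.

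Among the polymerases, *Pole* (chr5:110715325-110766493, plus strand), the catalytic subunit of leading strand polymerase epsilon, was at 34.7, 36.4 and 34.6 CPM in KO-con and 41.9, 49.7 and 52.9 in KO. It rose by 0.46 on the log2 scale (SE 0.10, adjusted p = 0.00746). *Pola1* (chrX:90550106-90877494, minus strand), the catalytic subunit of polymerase alpha that extends the primers, was at 31.6, 32.5 and 30.2 CPM in KO-con and 40.2, 43.8 and 42.4 in KO, 0.43 higher on the log2 scale (SE 0.09, adjusted p = 0.00648). For both genes the groups did not overlap. The other 5 of this group did not pass, with log2 fold changes of 0.44 for *Prim1* and 0.26 for *Prim2* of primase, 0.35 for *Pold1* of polymerase delta, 0.09 for *Pola2* and 0.05 for *Pole2*.

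In the helicase, *Mcm2* (chr6:88833469-88848774, minus strand) was at 119, 118 and 110 CPM in KO-con and 125, 154 and 153 in KO, and *Mcm4* (chr16:15623990-15637493, minus strand) at 36.0, 37.2 and 32.8 against 42.5, 44.7 and 43.3. Their log2 fold changes were 0.32 (SE 0.09, adjusted p = 0.0217) and 0.31 (SE 0.09, adjusted p = 0.0423). KO replicate 1 was close to the control libraries in *Mcm2* and not in *Mcm4*. *Mcm3* had 0.17 and *Mcm7* 0.12 and did not pass. *Chaf1b* (chr16:93884146-93906360, plus strand), a subunit of the chromatin assembly factor that places histones behind the fork, was at 9.95, 9.86 and 7.52 CPM in KO-con and 12.6, 13.6 and 13.6 in KO, 0.54 higher on the log2 scale (SE 0.15, adjusted p = 0.0289). Its partner *Chaf1a* had 0.33 (adjusted p = 0.0906).

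None of the 3 licensing and 4 helicase activation genes tested passed in KO. *Cdt1*, the helicase loader, had a log2 fold change of 0.23, *Gmnn*, its inhibitor geminin, 0.38 and *Orc1* 0.03. Of the GINS subunits, *Gins3* had 0.24, *Gins2* and *Gins4* 0.08 each and *Gins1* -0.02, the single negative value. *Rpa2*, which coats single-stranded DNA, had 0.25, *Ccne1*, cyclin E1, 0.04, and *E2f1*, an activator of these genes, 0.24. The 4 tested genes with 2 or more transcripts, *Mcm7*, *Gins1*, *Pola2* and *E2f1*, were measured less closely. Their SEs were 0.24 to 0.37 in KO against KO-con, beside 0.07 to 0.20 for the 26 with 1 transcript. A missing call in these 4 is therefore not shown to be a lack of change.

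These calls rested on the choice of control. Against all 6 control libraries together 0 of the 30 genes passed, with a median log2 fold change of 0.13, and against Over-con alone 0 passed too. In the fit of the 6 together the difference between the control groups enters the spread, which by itself can remove calls. The calls of *Mcm2*, *Chaf1b* and *Mcm4* were also lost without any 1 of the 3 KO-con libraries, KO replicate 2 or KO replicate 3, with adjusted p-values (edgeR) up to 0.12, 0.121 and 0.163, while those of the other 6 genes held without each of the 6 libraries.

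**Figure D3:**
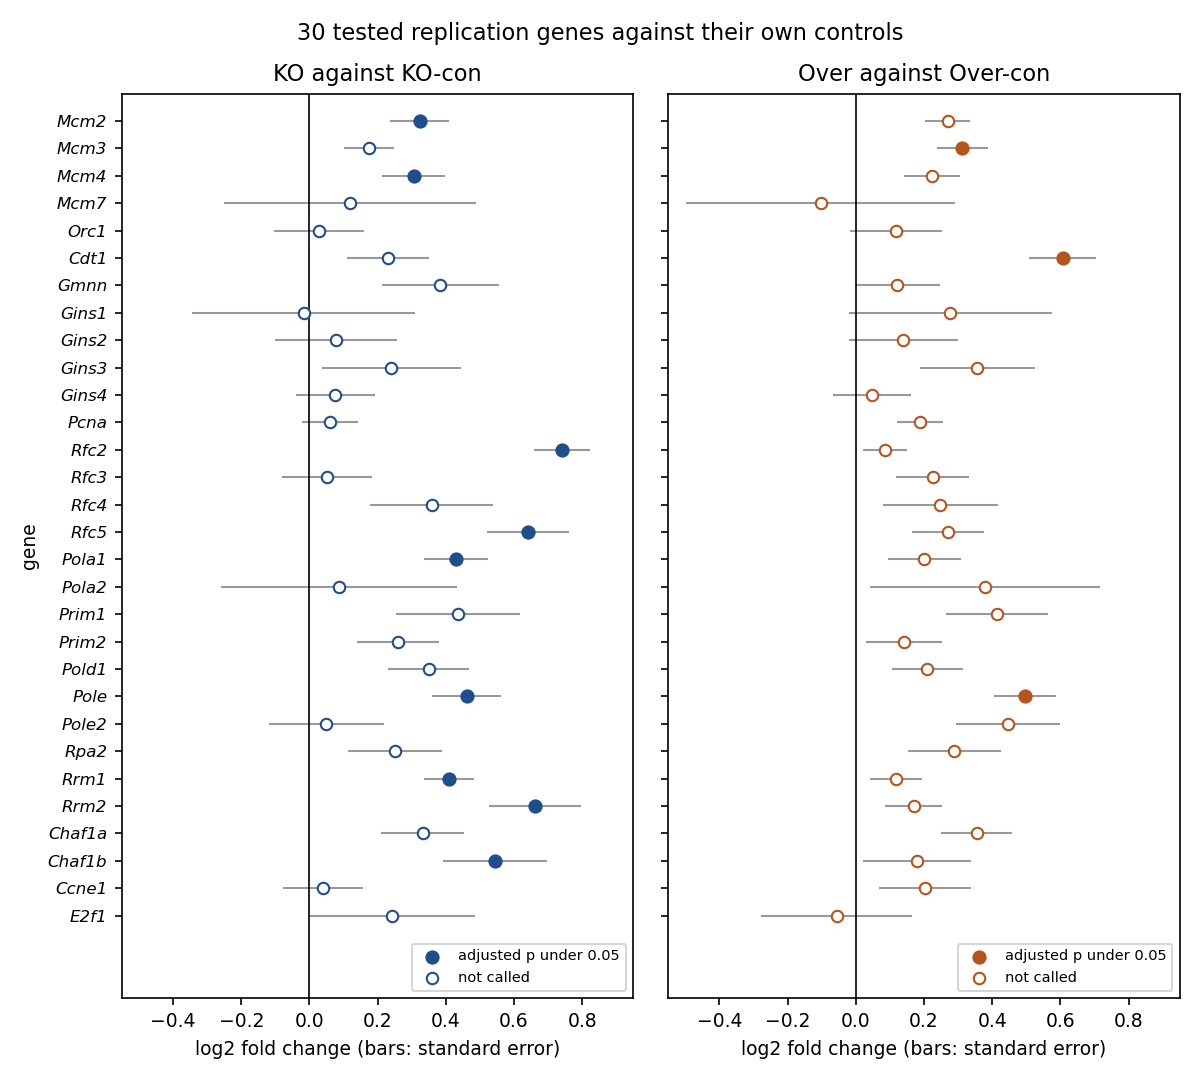
Log2 fold change (horizontal axis) of the 30 tested replication genes in KO against KO-con (left) and Over against Over-con (right), with standard errors as bars and filled points for an adjusted p under 0.05. In KO 29 of 30 and in Over 28 of 30 values lie above 0, and the filled points number 9 and 3.

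Over was compared with Over-con to ask what added *Stella* does. In Over, 3 of the 30 genes were higher than in Over-con and 0 were lower, where 1.65% of all 9401 transcripts tested passed, 0.766% higher and 0.883% lower. At an unadjusted p under 0.05, 10 were higher and 0 lower, DESeq2 called 4 higher and 0 lower, and limma-voom 3 and 0. The log2 fold change was above 0 for 28 of the 30, with a median of 0.22 beside 0.00 for all transcripts and a range from -0.10 to 0.61. No gene was a DEG (0 of 30, against 0.17% of all). In 13 genes every Over library was above every Over-con library, against 9.36% of all transcripts, and in 0 every one was below, against 9.75%. The mast cell, fibroblast and leukocyte sums were lower in each Over than in each Over-con library, and their part in the result was not tested.

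*Cdt1* (chr8:125091915-125097028, plus strand in mm9), whose promoter window is printed above, had the largest difference. It was at 28.0, 27.5 and 33.0 CPM in Over-con and 47.8, 42.9 and 44.3 in Over, while KO-con had 24.1, 30.1 and 23.9 and KO 27.1, 32.0 and 32.3. The 3 Over libraries stood above the 9 others. Its log2 fold change was 0.61 (SE 0.10, adjusted p = 0.00375), 1.52-fold, and 0.78 against KO-con (adjusted p = 6.91e-07). *Gmnn* and *Orc1* of the same group had 0.12 each against Over-con and did not pass.

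*Pole* was at 45.3, 50.6 and 43.8 CPM in Over-con and 68.1, 68.6 and 57.8 in Over, 0.50 higher on the log2 scale (SE 0.09, adjusted p = 0.0115). *Mcm3* (chr1:20793055-20810359, minus strand), a helicase subunit, was at 89.7, 87.3 and 102 CPM in Over-con and 113, 114 and 119 in Over, 0.31 higher on the log2 scale (SE 0.07, adjusted p = 0.0449). Over did not overlap Over-con in either gene. *Mcm2* had 0.27 (adjusted p = 0.0572) and *Mcm4* 0.22, *Chaf1a* 0.35, *Prim1* 0.41 and *Pole2* 0.45, none of them past the threshold.

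*Pole* was the gene that passed in both comparisons with the own control, 1 of the 9 and 1 of the 3. All 3 genes also rose in Over against KO-con, *Pole* with a log2 fold change of 0.89 and *Mcm3* with 0.57, whereas 0 of the 9 passed in KO against Over-con. *Cdt1* kept its call under each of the 18 alternatives tried, *Pole* and *Mcm3* did not. With 1 library left out, the adjusted p (edgeR) ranged from 0.00309 to 0.102 for *Pole* and from 0.000745 to 0.205 for *Mcm3*, whose call held only without Over-con replicate 3. Without Over-con replicate 1, Over replicate 1 or Over replicate 2, *Cdt1* alone passed, and without Over-con replicate 3 *Chaf1a*, *Mcm2* and *Pold1* passed too, 6 genes in all.

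**Figure D4:**
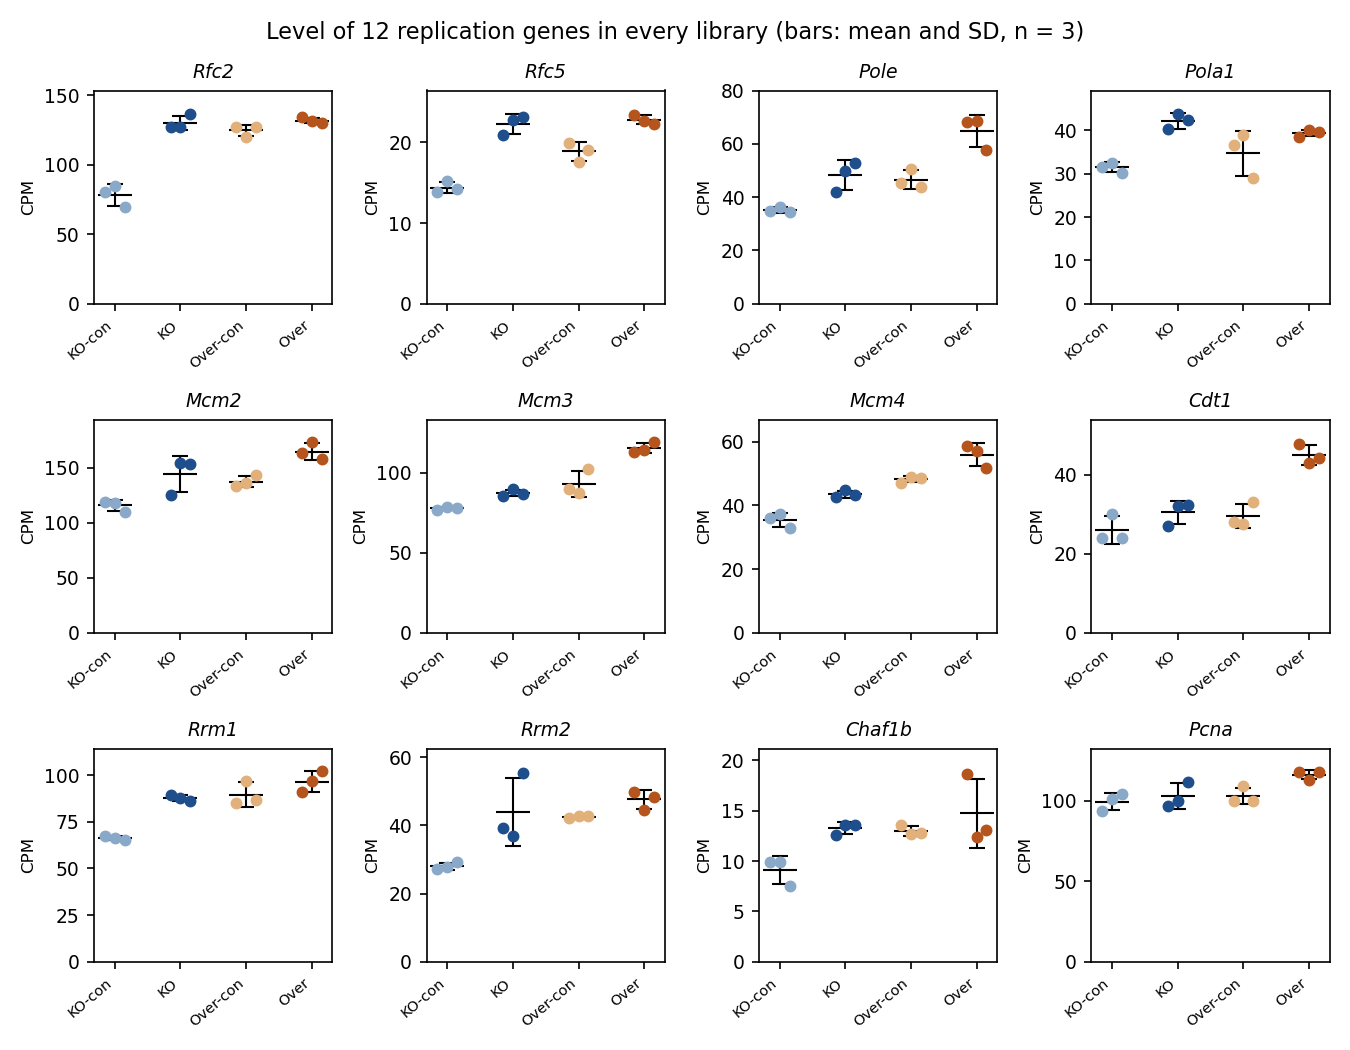
Level (vertical axis, CPM, from 0) of 12 replication genes in each of the 12 libraries, by group, with the mean and SD of 3 libraries as bars. KO-con is the lowest group for *Rfc2*, *Rrm1* and *Rrm2* with KO, Over-con and Over near one another, while for *Cdt1*, *Pole* and *Mcm3* Over lies above the other groups.

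The effects in KO and Over were then tested against each other in 1 fit of all 12 libraries. Of 31 genes 1 passed, *Rfc2*, where 8.64% of all 9903 transcripts did, and 5 had an unadjusted p under 0.05. The effect on *Rfc2* was 0.74 in KO and 0.08 in Over, a difference of 0.66 (SE 0.10, adjusted p = 0.000299). *Rrm2* had a difference of 0.49 (adjusted p = 0.0753), *Rrm1* 0.29 (adjusted p = 0.0839), *Rfc5* 0.37 (adjusted p = 0.133) and *Cdt1* -0.38 (adjusted p = 0.156), and none of these 4 passed. The median difference over the genes was 0.03, beside 0.01 for all transcripts. *Cdt1* and *Mcm3* passed in Over and not in KO, and *Rrm1* in KO and not in Over. This is thus not shown to be a difference between the effects against the own controls. The levels of the altered lines themselves are compared directly below.

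The control groups differed from each other in these genes. In KO-con, 10 of the 30 were lower than in Over-con and 0 were higher, where 16.3% of all 9321 transcripts passed, 8.08% higher and 8.19% lower. At an unadjusted p under 0.05, 11 were lower and 0 higher, and DESeq2 called 8 and limma-voom 11 lower, neither any higher. The median log2 fold change was -0.22 beside 0.00 for all transcripts. *Rfc2* fell furthest, by 0.66 on the log2 scale (adjusted p = 1.03e-05), and *Rrm2* fell by 0.60 (adjusted p = 0.00018) and *Pold1* by 0.55 (adjusted p = 0.00141). The others were *Chaf1b*, *Mcm4*, *Rrm1*, *Rfc5*, *Pole*, *Mcm3* and *Mcm2*. The count was 5 without KO-con replicate 1 and 6 without KO-con replicate 2 or Over-con replicate 1.

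Set against the control of the other line, KO and Over parted. In KO, 0 of the 30 genes passed against Over-con, where 7.87% of all 9363 transcripts passed, 3.07% higher and 4.81% lower. At an unadjusted p under 0.05, 1 gene was higher, *Pola1* with a log2 fold change of 0.29 (adjusted p = 0.193), and DESeq2 and limma-voom also called 0. The median was 0.03, with 18 of 30 values above 0, and *Rfc2*, *Rrm1* and *Rrm2* had 0.07, -0.03 and 0.05. Every KO library was above every Over-con library in *Rfc2*, *Rfc5* (0.24) and *Pola1*, and below in *Mcm4* (-0.15). The share of all transcripts without overlap was not taken here. *Pola1* had its highest group mean in KO, 42.1 CPM beside 31.4 in KO-con, 34.7 in Over-con and 39.3 in Over. In Over, 20 of the 30 genes were higher than in KO-con and 0 were lower, where 21.5% of all 9413 transcripts passed, 10.8% higher and 10.7% lower. The median was 0.54, DESeq2 and limma-voom called 20 higher and 0 lower, and at an unadjusted p under 0.05 21 were higher and 0 lower. All 5 genes of the clamp and clamp loader rose, with 0.75 for *Rfc2* and 0.23 for *Pcna*, and 5 of 7 of the polymerases and primase, among them *Pold1* with 0.77 and *Prim1* with 0.72. *Gmnn* rose by 0.62 and *Rpa2* by 0.51, and 0 of the 4 helicase activation genes passed (*Gins1* 0.60, *Gins3* 0.32, *Gins2* 0.23 and *Gins4* 0.13). *Gins1* was at 2.51 CPM in Over and 1.66 in KO-con, and its value had an SE of 0.30. KO and Over against a given control share its 3 libraries, so these comparisons are not independent of those with the own control.

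Over and KO were also compared directly, a comparison added after the levels of the groups had been seen. In Over, 5 genes were higher than in KO and 0 were lower, where 10.7% of all 9553 transcripts passed, 5.77% higher and 4.97% lower, with a median of 0.19 beside 0.00. DESeq2 and limma-voom called the same number, 5 higher and 0 lower, and 12 were higher and 0 lower at an unadjusted p under 0.05. *Cdt1* rose by 0.56 (adjusted p = 0.00195), *Pole* by 0.43, *Pold1* by 0.42, *Mcm3* by 0.40 (adjusted p = 0.00115) and *Mcm4* by 0.36. *Rfc2* had 0.02 and *Rfc5* 0.03. Without Over replicate 1 or Over replicate 2, *Cdt1* and *Mcm3* alone passed.

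**Figure D5:**
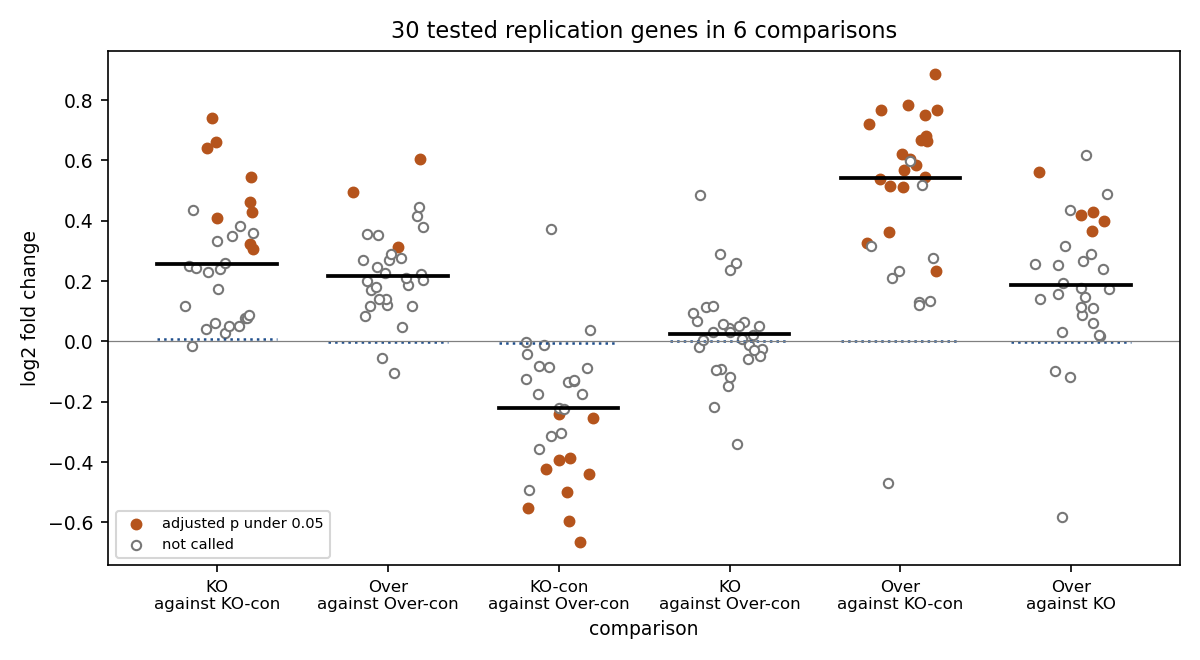
Log2 fold change (vertical axis) of the 30 tested replication genes in 6 comparisons of the 4 groups, filled where the adjusted p was under 0.05, with the median of the genes as a black line and that of all transcripts tested as a dotted line. The medians are 0.26, 0.22, -0.22, 0.03, 0.54 and 0.19 from left to right, against values within 0.01 of 0 for all transcripts.

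Genes of neighbouring functions, listed apart from the 44, were read in the same fits. Of 39 other replication genes 23 were tested in KO against KO-con and 6 were higher and 0 lower (26.1%, where 11.8% of all transcripts passed), with a median log2 fold change of 0.19. *Top2a*, which untangles the copied strands, went from 126 ± 5.31 to 170 ± 7.41 CPM (SD, n = 3), 0.43 on the log2 scale (adjusted p = 0.000849), and *Recql4*, a helicase of replication initiation, had 0.56 and *Clspn*, the checkpoint mediator claspin, 0.48. Against Over-con these 3 genes had 0.12, 0.19 and 0.06 in KO and did not pass. Of 24 tested there only *Rnaseh2b*, of ribonuclease H2 and named after its value was seen, was higher, with 0.55 (edgeR, adjusted p = 0.0415). The median was 0.05 and 0 were lower, and the share called was 4.17%, where 7.87% of all transcripts passed. In Over against Over-con 0 of 24 passed (edgeR), where 1.65% of all did, with a median of 0.12 and 7 higher and 0 lower at an unadjusted p under 0.05. Of 18 genes of nucleotide and histone supply, 14 were tested, and against KO-con 2 passed in KO (14.3%), both higher, among them *Dck*, deoxycytidine kinase, with 0.34. In KO against Over-con 0 passed, and in Over 0, where 6 were higher and 0 lower at an unadjusted p under 0.05 (edgeR), beside 0 for the former. Of 19 genes of the replication checkpoint and repair, 8 were tested in each, and *Brca1* rose in KO against KO-con by 0.47 (1 of 8, 12.5%) and the mismatch repair gene *Msh6* in Over by 0.31, with 0 lower, while 0 passed in KO against Over-con. In KO against KO-con the shares of the supply list and of the checkpoint list are near that of all transcripts.

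The list of E2F factors, pocket proteins and G1/S kinases did not move in 1 direction. Of 18 tested in KO against KO-con, 1 was higher and 3 were lower (22.2%), with a median of 0.05. *Rb1*, which restrains E2F, rose by 0.56 (adjusted p = 0.000377) from 101 ± 2.98 to 150 ± 16.8 CPM. *Ccnd2*, cyclin D2, fell by 0.34 (adjusted p = 0.00294), *Cdk6*, its kinase partner, fell by 0.31, and *Cdkn1a*, the kinase inhibitor p21, fell by 1.26 from 3.25 ± 0.23 to 1.29 ± 0.955 CPM (adjusted p = 0.0459). Against Over-con *Rb1* was higher in KO by 0.84 and *Ccnd2* fell by 0.43, and the other 17 of 19 tested did not pass. The share called was 10.5%, near the 7.87% of all transcripts that passed there. In Over *Ccnd2* fell by 0.24 (edgeR, adjusted p = 0.0389), from 1150 ± 16.2 to 973 ± 7.07 CPM. It was the 1 call among 18 (5.56%, where 1.65% of all transcripts passed). Of 25 mitotic genes 18 were tested, and in KO against KO-con 6 were higher (33.3%) and 0 lower with a median of 0.29. *Bub1b*, of the spindle checkpoint, had 0.82 (adjusted p = 0.000416), *Aurkb*, the kinase Aurora B, 0.89 and *Mki67*, the proliferation marker Ki-67, 0.55. Against Over-con 0 of the 18 passed in KO (edgeR), with a median of 0.15 and 1 gene at an unadjusted p under 0.05, and these 3 genes had 0.14, -0.06 and -0.009. In Over 0 of the 18 mitotic genes passed, though all 18 values were above 0, with a median of 0.27 and 10 higher at an unadjusted p under 0.05. Where a list had no call in Over against Over-con, calls in KO are not shown to be particular to KO. The difference of the lists was not tested. Against KO-con, Over was higher in 9 of 23 other replication genes (39.1%) and 5 of 14 of supply (35.7%). It was higher in 6 of 8 of checkpoint and repair (75%) and 10 of 18 mitotic genes (55.6%). In these lists 0 were lower. Of the E2F list 3 of 19 were higher and 3 lower (31.6%). Of all transcripts 21.5% passed there. These comparisons share the KO-con libraries with the calls in KO.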

How the data were processed

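RNA-seq libraries of 12 samples (stranded mRNA kit) were aligned by the authors with HISAT2 (default settings, mm9), and the authors deposited raw counts per RefSeq transcript, without normalization. The strand setting, annotation release and treatment of shared reads are not given in the sources used here. Groups came from the sample titles. Symbols for 41186 of 41388 transcripts (99.5%) came from RefSeq (GRCm38.p6), positions from GENCODE vM1 (mm9). The genes and lists were chosen with earlier results of these data known.

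Counts were tested with edgeR 4.0.16 (TMM, filterByExpr, glmQLFit, glmQLFTest) in R 4.3.3, only the groups compared entering a fit, and p-values were adjusted after Benjamini and Hochberg over every transcript tested. A call was an adjusted p under 0.05, and a DEG also had an absolute log2 fold change over 1. CPM are counts scaled to a common total with TMM factors over 12 libraries, except for the genes of neighbouring functions, where factors were those of the comparison. Text names the 10 called genes with the lowest adjusted p per own-control comparison, those called against both controls or for the difference (at most 6 each) and at most 3 of each neighbouring list, with other genes given by value only. *Cdkn1a* and *Rnaseh2b* of the neighbouring lists were named beyond this rule. A gene of the neighbouring lists is not reported here. Alternatives were DESeq2 1.42.0, limma-voom (limma 3.58.1), other scalings and filters, pooled controls, the replicate block, counts summed per gene and each library left out. Steps were tested on simulated data. Python 3.11.15, pandas 2.3.3, numpy 2.4.6 and matplotlib 3.10.9 were used. Intervals and floors of 3 counts cover counting error only. An exact permutation test of 3 libraries against 3 cannot go below p = 0.1 and was not used.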

Additional observations from a re-analysis of the deposited data

Results flagged for a closer look

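*Rfc2* stood out because its change differed between the knockout and overexpression comparisons in a direct test. The difference was 0.66 on the log2 scale, with 0.74 in KO against KO-con and 0.08 in Over against Over-con (edgeR's quasi-likelihood test on 12 libraries, adjusted p = 0.000299). The group means were 78.2, 130, 125 and 132 CPM in KO-con, KO, Over-con and Over. The value of KO-con, which lay apart, enters the difference, and KO had 0.07 against Over-con (adjusted p = 0.734). Groups of 3 libraries were not searched for outlying libraries.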

How the results depend on the processing

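Depth and counting limit the 18 genes with 2 or more transcripts, of which 14 could not be tested. With all 6 control libraries, 0 genes passed in KO (median log2 fold change 0.13) and 1 in Over (median 0.39), where the difference between the control groups enters the spread. Under the DEG thresholds 0 passed in either comparison with the own control. Of the genes called in KO against KO-con, *Rrm1* and *Mcm4* turned sign against Over-con, to -0.028 and -0.15, neither past the threshold. Signs also turned among genes that passed against neither control, such as *Mcm3* from 0.17 to -0.09, *Gmnn* from 0.38 to -0.12 and *Pold1* from 0.35 to -0.22. With library totals in place of TMM the medians were 0.29 in KO against KO-con, 0.61 in Over against KO-con, -0.27 in KO-con against Over-con and 0.21 in Over against KO, with the median of all transcripts shifted by at most 0.07. With no filter 5 genes passed in Over against Over-con, and 2 (*Rfc2* and *Rrm2*) for the difference of effects. The cause was not tested.

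Leaving out 1 library at a time gave 6 to 10 calls and medians of 0.23 to 0.32 in KO against KO-con, 1 to 6 calls and medians of 0.18 to 0.25 in Over against Over-con, 0 calls and medians of -0.019 to 0.031 in KO against Over-con, 18 to 20 calls and medians of 0.51 to 0.56 in Over against KO-con, 5 to 10 calls and medians of -0.28 to -0.21 in KO-con against Over-con, 2 to 7 calls and medians of 0.17 to 0.24 in Over against KO, and 1 to 2 calls for the difference, *Rrm2* being the added gene without KO replicate 1 or KO replicate 2. The replicate numbers share no stated culture or day. The deviations of same-numbered libraries from their group means (log2 CPM) were correlated over the transcripts in the fit of all libraries. These correlations were -0.11 to -0.06 in KO against KO-con and -0.17 to -0.02 in Over against Over-con. With the replicate block 7 genes passed in KO against KO-con, 2 in Over against Over-con, 0 in KO against Over-con, 21 in Over against KO-con, 10 in KO-con against Over-con, 5 in Over against KO and 1 for the difference. Of 396 values of the named genes under alternatives, 336 kept their side of the threshold, 46 lost the call, 12 gained it and 2 called values turned sign. The 396 include genes not called in a comparison, which had no call to lose. The 46 and the 2 all fell on the 9 calls in KO and the 3 in Over, each tried under 18 alternatives. Per call the losses ran from 0 of 18 for *Cdt1* in Over to 9 of 18 for *Mcm4* in KO, which also turned sign in 1. A turn of sign between values that did not pass was counted among the 336, as for *Mcm3* in KO, with 0.17 against KO-con and -0.09 against Over-con.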
